A study of Homo sapiens with 12 samples.

Results

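The genes described here are those for the relatives of the tumour suppressor p53 (TP63 and TP73), for the proteins that bind p53 and limit it (MDM2 and MDM4), and for the ASPP proteins, which bind p53 family proteins and change their choice of target genes (PPP1R13B, TP53BP2, and PPP1R13L). They were taken from the counts by gene symbol, and all 7 were among the 25369 genes listed. Of these, 6 passed the filter on low counts, which left 16625 genes for testing. TP63 did not pass it.

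RNA-seq had been performed on poly(A) RNA from U2OS Tet-On cells, a human osteosarcoma line in which doxycycline turns on a stably carried construct. The 4 lines were pTRE (empty vector), WT (HA-tagged wild-type E2F1), R109K (HA-tagged E2F1 with an arginine-to-lysine change), and KK (the HA-tagged R111/113K derivative, with such a change at a pair of neighbouring arginines), the changed arginines being sites of methylation. All 12 samples, 3 biological replicates of each line, had 24 h with doxycycline at 1 µg/ml, the pTRE cells included, so every comparison with pTRE is one of a line with E2F1 against a line without it under the same drug. Whether a line was 1 clone or a pool is not given in the sources used here, and the cells' own E2F1 was present in all lines.

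The p53 family proteins are transcription factors that bind closely related DNA elements. p73 and p63 can turn on genes for cell cycle arrest and death as p53 does, and both are also made from inner promoters as shortened forms that oppose this. MDM2 is a ubiquitin ligase that marks p53 for degradation and is itself a p53 target, and MDM4 is its relative, which binds and blocks the p53 activation domain. ASPP1 (PPP1R13B) and ASPP2 (TP53BP2) favour the death genes among the targets, whereas iASPP (PPP1R13L) inhibits. E2F1, a factor that drives entry into S phase and can also trigger apoptosis, is known to act on the promoter of TP73, and E2F sites have been described for ASPP genes.

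For promoters, RefSeq had 13 sequence windows for the 7 genes, each of 250 bases before and 50 after a start of transcription (GRCh38.p14), and all 13 were found by exact match in GRCh37. Both strands were searched for the E2F core motifs TTTGGCGC, TTTCCCGC, TTTGCCGC, and TTTCGCGC. A match was present in 3 windows of 2 genes, TP73 and MDM2, and of all 35116 RefSeq windows 3.315% held one. The MDM2 windows with a match overlap and hold the same bases, so that match is counted in more than 1 window. The following 3 sequences are the 250 bases before the first start of TP73, before the first start of MDM2, and before the start of PPP1R13B. They are shown because TP73 and PPP1R13B were the genes of the group whose RNA changed by more than 2-fold, and because MDM2 held the other match. They run 5′ to 3′ on the strand of the gene, and capitals mark the match, which is TTTGGCGC on the opposite strand.
TP73, chr1:3568830-3569079, plus strand of GRCh37: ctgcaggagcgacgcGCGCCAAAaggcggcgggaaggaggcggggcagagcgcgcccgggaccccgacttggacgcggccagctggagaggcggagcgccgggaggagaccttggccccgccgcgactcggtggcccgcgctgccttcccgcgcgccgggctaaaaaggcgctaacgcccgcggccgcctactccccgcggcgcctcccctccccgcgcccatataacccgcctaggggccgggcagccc
MDM2, chr12:69201702-69201951, plus strand of GRCh37: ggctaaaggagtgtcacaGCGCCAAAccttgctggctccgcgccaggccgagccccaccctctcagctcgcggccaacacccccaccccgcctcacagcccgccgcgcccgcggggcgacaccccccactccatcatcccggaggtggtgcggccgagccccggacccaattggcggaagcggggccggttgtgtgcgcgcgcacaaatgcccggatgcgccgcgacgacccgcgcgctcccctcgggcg
PPP1R13B, chr14:104313913-104314162, minus strand of GRCh37: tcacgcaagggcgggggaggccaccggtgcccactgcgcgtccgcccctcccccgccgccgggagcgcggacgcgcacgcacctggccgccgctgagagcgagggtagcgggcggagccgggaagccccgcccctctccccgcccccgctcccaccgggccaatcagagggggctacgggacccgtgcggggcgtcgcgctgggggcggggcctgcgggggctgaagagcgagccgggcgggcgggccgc
The match lay from -235 to -228 in TP73 and from -232 to -225 in MDM2, counted from the base just before the start as -1. The other 2 windows of TP73, which belong to inner starts, held none. PPP1R13B held none in its single window, in which 81.6% of the 250 bases were G or C. A match of letters is not a binding site, and no binding was measured in these data.

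In GRCh37, TP73 occupies bases 3569080 to 3652765 of chromosome 1 on the plus strand, and TP63 lies on the plus strand of chromosome 3, from 189349178 to 189615065. MDM2 lies on the plus strand of chromosome 12, from 69201957 to 69239324, and MDM4 on the plus strand of chromosome 1, from 204485507 to 204527248. PPP1R13B lies on the minus strand of chromosome 14, from 104199532 to 104313912. TP53BP2 lies on the minus strand of chromosome 1, from 223967595 to 224033656, and PPP1R13L on the minus strand of chromosome 19, from 45882896 to 45909607. All 7 are annotated as protein coding, and their counts are sums over the exons of all isoforms. The forms of p73 and p63 made from different promoters can therefore not be told apart.

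The samples had between 11500537 and 31040903 reads on genes. WT replicate 2 stood apart, with 58.7% of its reads assigned to no counted feature against 23.6% to 29.6% in the other 11 samples. With counts summed over exons, such reads can lie in introns or between genes, which the counts do not tell apart. Values for WT include it, and some of those for MDM2, MDM4, and PPP1R13L are also given without it. Levels are given as CPM, counts per 1000000 reads on genes after TMM normalization. TMM scales each library by 1 factor and does not remove differences between libraries that vary from gene to gene. E2F1 RNA, from the cells and the construct together, averaged 91.2 CPM in pTRE, 1811 in WT, 1158 in R109K, and 1316 in KK. The labels call the cells osteosarcoma and epithelial. Mesenchymal and osteoblast markers summed to between 6128 and 7391 CPM in pTRE and to between 2171 and 3383 in the E2F1 lines, where COL1A1 had the largest fall of the 5 tested (log2 fold change -2.65 in WT, -2.43 in KK, and -2.08 in R109K, adjusted p = 8.57e-09, 1.84e-08, and 1.53e-07 from edgeR). Of 7 such markers, TWIST1 had at most 1 read in any sample and COL1A2 at most 16. Of the 5 tested, 2 in WT, 3 in KK, and 3 in R109K were lower with an adjusted p-value below 0.01, and 0 were higher. VIM had log2 fold changes of -0.25 in WT, -0.06 in KK, and 0.09 in R109K (adjusted p = 0.143, 0.766, and 0.675 from edgeR). Of 7 squamous and simple epithelial markers, KRT6A and DSG3 had at most 6 reads in any sample, and the list summed to between 15.4 and 18.4 CPM in pTRE and between 18.8 and 26.1 in the E2F1 lines, where KRT15 rose from 1.21 CPM to 8.37 in WT, 8.65 in R109K, and 8.06 in KK (adjusted p = 6.15e-06, 8.92e-06, and 7.34e-06 from edgeR). KRT5, of the same list, lay the other way at a low level, 0.61 CPM in pTRE, with log2 fold changes of -1.64 in WT, -2.18 in KK, and -2.03 in R109K (adjusted p = 0.0350, 0.00985, and 0.0160), and fell in KK. KRT14 (-1.50 in WT), CDH1 (-1.03 in R109K), and EPCAM had adjusted p-values above 0.01 in all 3 lines. Leukocyte and endothelial markers summed to at most 1.07 CPM. The part of these marker changes in the results below was not tested.

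A transcript is called regulated at an adjusted p-value below 0.01 and a change of more than 2-fold, with edgeR's quasi-likelihood test and Benjamini-Hochberg adjustment over all 16625 genes. The words rose and fell are used for an adjusted p-value below 0.01 and any size of change. In WT against pTRE, 2 of the 6 tested genes were regulated, TP73 and PPP1R13B, both upward, where 11.8% of all tested genes were regulated, 7.89% upward and 3.93% downward. In KK the same 2 genes were up-regulated (10.9% of all genes, 7.01% upward and 3.90% downward). In R109K TP73 alone was up-regulated (7.19% of all genes, 4.64% upward and 2.56% downward). With no limit on the size of the change, 3 of the 6 rose in WT (TP73, PPP1R13B, and MDM2, where 14.8% of all genes rose and 11.4% fell) and 3 rose in R109K (the same genes, where 10.0% rose and 7.23% fell). In KK, TP73 and PPP1R13B rose (13.8% of all genes did) and PPP1R13L fell (10.7%). The 3 comparisons share the pTRE samples. The median log2 fold change of the 6 genes was 0.53 in WT, 0.34 in KK, and 0.40 in R109K, beside 0.0022, -0.0091, and -7.4e-04 over all tested genes.

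**Figure D1:**
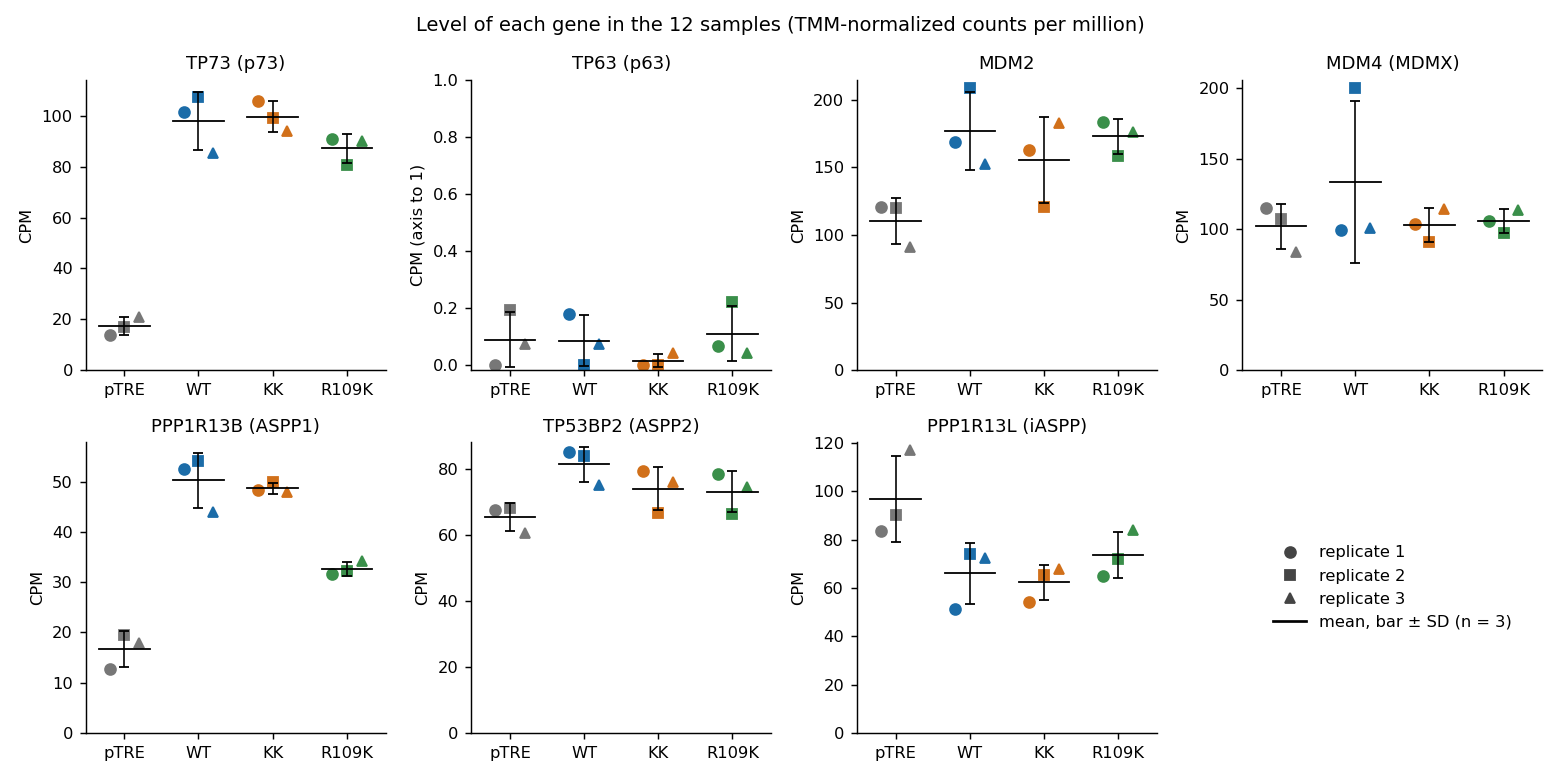
Levels of the 7 genes in each of the 12 samples, in CPM on a linear axis from 0 for each gene, with points for replicates and the mean and SD (n = 3) of each line. TP73 and PPP1R13B are higher in every E2F1 sample than in every pTRE sample, MDM4 has 1 high sample (WT replicate 2, 200 CPM), and TP63 has 6 reads or fewer in every sample.

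TP73, the gene for p73, had the largest change of the group. Its level was 13.8, 17.1, and 20.9 CPM in pTRE replicates 1, 2, and 3. In WT it was 101, 107, and 85.3 CPM, in R109K 91.0, 80.6, and 89.9, and in KK 106, 99.2, and 93.8. No sample with E2F1 came near the pTRE range, in a setting where replicates did not overlap for 51.5% of all genes between WT and pTRE, 49.4% between KK and pTRE, and 47.2% between R109K and pTRE. Among themselves the 3 E2F1 lines lay close together, in the order KK, WT, and R109K. The means were 17.2 ± 3.56 CPM in pTRE, 98.0 ± 11.4 in WT, 87.1 ± 5.74 in R109K, and 99.6 ± 6.01 in KK (SD, n = 3). Against pTRE the log2 fold change was 2.50 in WT (SE 0.15, adjusted p = 1.34e-08 from edgeR), 2.53 in KK (SE 0.15, adjusted p = 1.35e-08), and 2.34 in R109K (SE 0.15, adjusted p = 6.75e-08). These are rises of 5.68-fold, 5.78-fold, and 5.05-fold. With any 1 of the samples left out, the log2 fold change in WT stayed between 2.36 and 2.66.

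The lines with E2F1 were not shown to differ in TP73. R109K was below WT by a log2 fold change of -0.17 (95% interval -0.46 to 0.13, adjusted p = 0.478 from edgeR), and KK differed from WT by 0.03 (95% interval -0.27 to 0.32). The 3 R109K samples were all below the 3 KK samples, with a log2 fold change of -0.19 (95% interval -0.49 to 0.10, adjusted p = 0.657 from edgeR), where 21.0% of all tested genes had replicates that did not overlap between these lines. All of these intervals exclude a difference of 2-fold. For E2F1 RNA itself the log2 fold change was -0.65 in R109K against WT (adjusted p = 0.0577 from edgeR), -0.46 in KK against WT (adjusted p = 0.574), and -0.18 in R109K against KK (adjusted p = 0.773). Per read of E2F1 there were 0.188 reads of TP73 in pTRE, 0.0556 in WT, 0.0771 in R109K, and 0.0765 in KK. An antisense gene, TP73-AS1, shares 633 exon bases with TP73 (9.35% of its exon bases) and had at most 1 read in any sample.

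TP63, the gene for p63, was almost unread in these cells. It had 0, 5, and 2 reads in pTRE, 5, 0, and 2 in WT, 2, 6, and 1 in R109K, and 0, 0, and 1 in KK, 24 reads over the 12 samples. Only 3 samples, from 3 different lines, had more than 3 reads, the count taken here as the limit that a count of 0 allows, which is between 0.0972 and 0.241 CPM per sample. No difference in TP63 between lines was detectable at this depth, and no fold change is given. Among the 2 relatives of p53, TP73 was thus the one with measurable RNA in all 4 lines.

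PPP1R13B, which encodes the activator ASPP1, stood at 12.6, 19.6, and 18.0 CPM in pTRE. In WT it was at 52.6, 54.1, and 44.1 CPM, in KK at 48.3, 49.9, and 47.9, and in R109K at 31.6, 32.3, and 34.3. The levels fell into 3 separate ranges, with pTRE lowest, R109K in between, and WT and KK together at the top. Of all genes, 51.5% in WT, 49.4% in KK, and 47.2% in R109K had replicates that did not overlap with pTRE. Against pTRE the log2 fold change was 1.58 in WT (SE 0.15, adjusted p = 9.07e-07 from edgeR) and 1.54 in KK (SE 0.14, adjusted p = 1.12e-06), 3.00-fold and 2.91-fold. In R109K it was 0.97 (SE 0.14, adjusted p = 1.47e-04 from edgeR), a rise of 1.95-fold that is under the limit of 2-fold. That limit turned on single pTRE samples, since the log2 fold change in R109K was 1.09 without pTRE replicate 2 and 1.02 without pTRE replicate 3, and PPP1R13B was then regulated.

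PPP1R13B was the gene of the group with the largest difference between the E2F1 lines themselves. R109K was below WT by a log2 fold change of -0.62 (95% interval -0.92 to -0.32, adjusted p = 0.0276 from edgeR) and below KK by -0.57 (95% interval -0.87 to -0.28, adjusted p = 0.0647 from edgeR). The 3 R109K samples were all below those of both lines. Between R109K and WT 27.1% of all genes had no overlap of replicates, and between R109K and KK 21.0%. Neither adjusted p-value is below 0.01, and with DESeq2 both were, at 0.00171 and 0.00741. DESeq2 was the only 1 of 6 other settings to bring them below 0.01. With 1 sample left out, 0 of 6 fits did so in either comparison. The highest values over all alternatives were 0.111 against WT and 0.215 against KK. KK and WT differed by a log2 fold change of -0.04 (95% interval -0.34 to 0.25). ZFYVE21, on the other strand, shares 474 exon bases with PPP1R13B (4.95%). Its log2 fold change was -0.62 in WT, -0.43 in KK, and -0.10 in R109K, opposite in sign to that of PPP1R13B. Of these, only that in WT had an adjusted p-value below 0.01 (0.00333, 0.0258, and 0.659 from edgeR).

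TP53BP2, the gene of the second activator ASPP2, was at 67.5, 68.1, and 60.5 CPM in pTRE and at 85.0, 83.9, and 75.2 in WT. It was at 78.5, 66.4, and 74.5 CPM in R109K and at 79.5, 66.8, and 76.0 in KK. The WT samples were all above pTRE (51.5% of all genes did not overlap between these lines), and those of R109K and KK overlapped with pTRE. The log2 fold change was 0.32 in WT (adjusted p = 0.0342 from edgeR), 0.18 in KK (adjusted p = 0.224), and 0.16 in R109K (adjusted p = 0.312), and none is below 0.01. Their 95% intervals reach at most 0.55, so that a 2-fold rise is outside them.

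PPP1R13L, which encodes the inhibitor iASPP, lay the other way. It was at 83.3, 90.1, and 117 CPM in pTRE, at 51.4, 74.1, and 72.3 in WT, at 64.9, 72.1, and 83.8 in R109K, and at 54.1, 65.2, and 67.7 in KK. All WT and KK samples were below all pTRE samples, and 1 R109K sample was within the pTRE range. Replicates did not overlap for 51.5% of all genes between WT and pTRE and for 49.4% between KK and pTRE. PPP1R13L fell in KK by 0.63 on the log2 scale (adjusted p = 0.00679 from edgeR). The log2 fold change was -0.56 in WT (adjusted p = 0.0142) and -0.39 in R109K (adjusted p = 0.0862), both above 0.01. The adjusted p-value in WT was 0.00564 with DESeq2, 0.00650 with no filter on low counts, and 0.00877 without WT replicate 2. In WT it was below 0.01 in 3 of 6 other settings and in only 1 of 6 fits with 1 sample left out, and it reached 0.0834. The adjusted p-value in KK was no longer below 0.01 without pTRE replicate 2 or 3 or without any 1 of the KK replicates, and reached 0.0446. The 3 E2F1 lines were not shown to differ from each other, with 95% intervals that lie between -0.43 and 0.59.

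**Figure D2:**
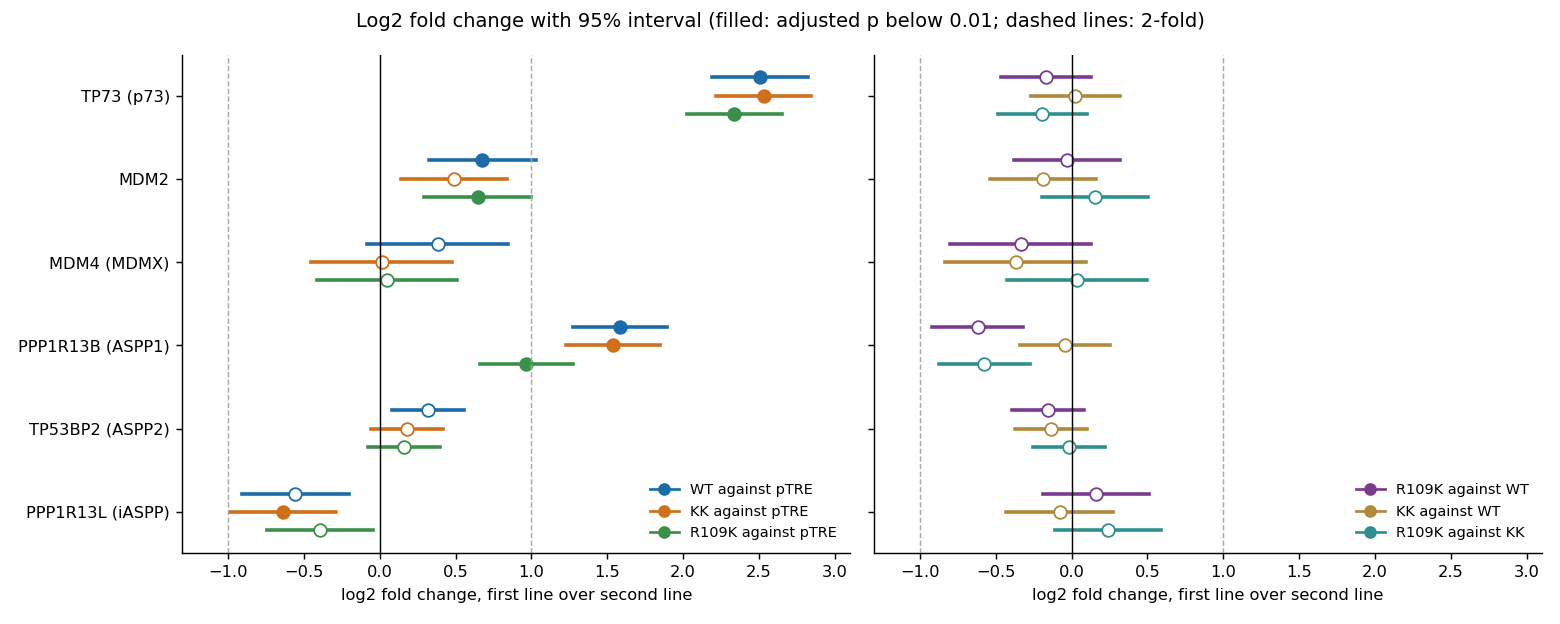
Log2 fold changes of the 6 tested genes from edgeR, for each E2F1 line against pTRE and for the lines against each other, with bars for 95% intervals and dashed lines at 2-fold. TP73 lies past the 2-fold line in all 3 comparisons with pTRE and PPP1R13B in those of WT and KK, and in the comparisons between E2F1 lines the values furthest from 0 are those of PPP1R13B in R109K (-0.62 and -0.57).

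The balance of RNA between the inhibitor and the activators of the ASPP group was read from ratios of reads within each sample. These ratios were chosen after the values were seen, and 5 ratios in 6 comparisons each, 30 in all, were examined with two-sided exact permutation tests, for which 3 against 3 samples cannot give a p-value below 0.1. For each read of PPP1R13B there were 6.59, 4.60, and 6.49 reads of PPP1R13L in pTRE, and 0.977, 1.37, and 1.64 in WT. The ratio was 2.06, 2.23, and 2.45 in R109K and 1.12, 1.31, and 1.41 in KK. Every E2F1 sample was below every pTRE sample, and every R109K sample was above every WT and KK sample (exact p = 0.1 each, 0.158 after Benjamini-Hochberg adjustment over the 30). KK and WT overlapped (exact p = 0.9). For the 2 activators, the reads of PPP1R13B per read of TP53BP2 averaged 0.257 in pTRE, 0.617 in WT, 0.450 in R109K, and 0.662 in KK, and again the R109K samples lay between pTRE and the other lines without overlap (exact p = 0.1 each, 0.158 adjusted). The reads of PPP1R13L per read of TP53BP2 averaged 1.50 in pTRE, 0.816 in WT, 1.01 in R109K, and 0.850 in KK. All E2F1 samples were below pTRE on this ratio (exact p = 0.1 each, 0.158 adjusted), but R109K overlapped with WT and with KK (exact p = 0.3 each, 0.391 adjusted).

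**Figure D3:**
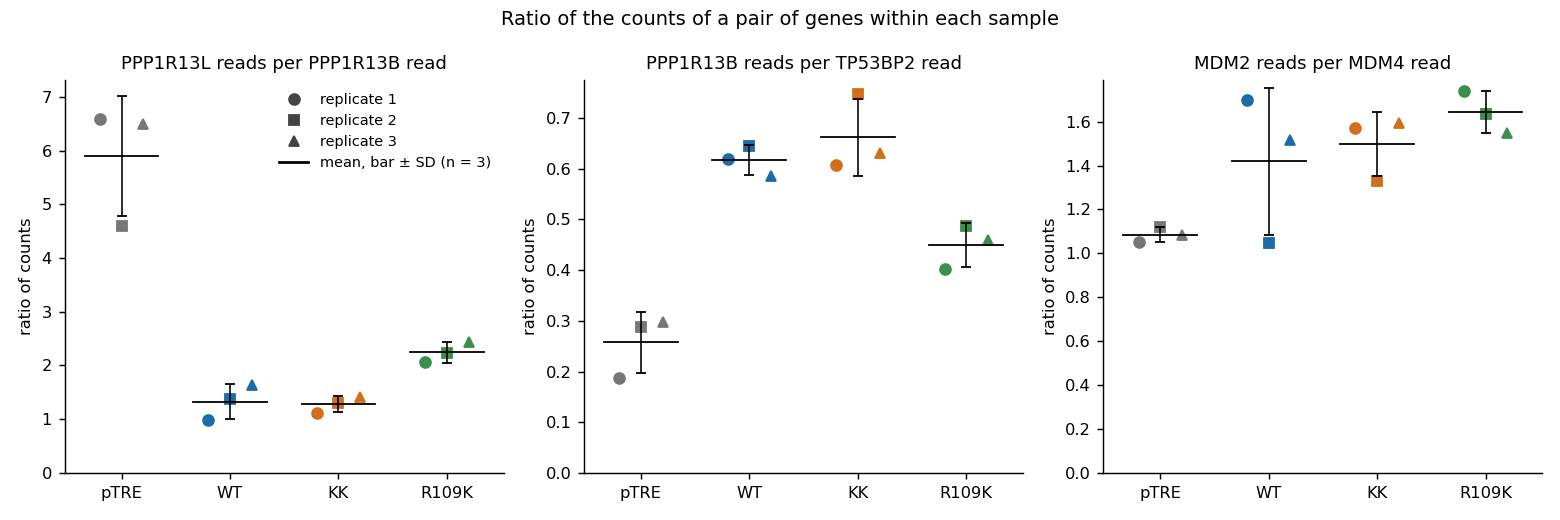
Ratios of reads between genes of the group in each of the 12 samples, with points for replicates, lines for the mean of each group, and bars for its SD (n = 3). PPP1R13L reads per PPP1R13B read average 5.90 in pTRE, 1.33 in WT, 2.24 in R109K, and 1.28 in KK, and MDM2 reads per MDM4 read average 1.08 in pTRE, 1.42 in WT (1.61 without replicate 2), 1.64 in R109K, and 1.50 in KK.

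MDM2, the gene of the p53 ubiquitin ligase, was at 121, 120, and 91.1 CPM in pTRE and at 169, 209, and 153 in WT. In R109K it was at 184, 158, and 177 CPM, and in KK at 163, 120, and 183. All WT and R109K samples were above pTRE, and KK replicate 2 was within the pTRE range. Replicates did not overlap for 51.5% of all genes between WT and pTRE and for 47.2% between R109K and pTRE. MDM2 rose in WT by a log2 fold change of 0.68 (SE 0.17, adjusted p = 0.00446 from edgeR) and in R109K by 0.65 (SE 0.17, adjusted p = 0.00846), 1.60-fold and 1.56-fold and so under 2-fold. In KK the log2 fold change was 0.49 (SE 0.17, adjusted p = 0.0299), and 0.64 (adjusted p = 0.00518) without KK replicate 2.

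The calls of MDM2 were close to the limit. In WT the adjusted p-value was above 0.01 without pTRE replicate 1, 2, or 3 and without WT replicate 2, when the log2 fold change was 0.54 (adjusted p = 0.0146 from edgeR), and the highest value was 0.0303. In R109K it was above 0.01 without any 1 of the 6 samples, and at most 0.0503. KK and WT differed by a log2 fold change of -0.19 (95% interval -0.54 to 0.16), R109K and WT by -0.03 (-0.38 to 0.32), and R109K and KK by 0.16 (-0.19 to 0.51). On the other strand, the carboxypeptidase M gene shares 133 exon bases with MDM2 (1.6%). It had log2 fold changes of 1.09 in WT, 1.17 in KK, and 0.41 in R109K (adjusted p = 1.15e-04, 5.44e-05, and 0.0785 from edgeR). A long noncoding RNA gene on the other strand (785 bases, 9.45%) and a processed pseudogene on the same strand (439 bases, 5.29%) share more. Neither was listed under its name in the counts. Whether the counting took account of strand is not given in the sources used here.

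MDM4, the gene of the relative of MDM2, was at 115, 107, and 84.0 CPM in pTRE, at 106, 96.9, and 114 in R109K, and at 103, 90.7, and 115 in KK. In WT it was at 99.6, 200, and 101 CPM. WT replicate 2, the sample with many reads assigned to no counted feature, was above all others, and the remaining samples of all lines overlapped. The log2 fold change was 0.38 in WT (adjusted p = 0.175 from edgeR), 0.01 in KK (adjusted p = 0.972), and 0.05 in R109K (adjusted p = 0.903), and without WT replicate 2 it was -0.03 in WT. The reads of MDM2 per read of MDM4 were between 1.05 and 1.12 in pTRE. They were between 1.55 and 1.74 in R109K and between 1.33 and 1.60 in KK, without overlap (exact p = 0.1 each, 0.158 adjusted). In WT the ratio was 1.70, 1.047, and 1.51 (exact p = 0.4 against pTRE). WT replicate 2 lay just below the lowest pTRE value, 1.051, and the other WT samples lay above the pTRE range. The mean in WT was 1.42, or 1.61 without WT replicate 2.

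In the direct comparisons of R109K with WT, of KK with WT, and of R109K with KK, 0 of the 6 genes were regulated with edgeR, where 0.343%, 0.00602%, and 0.0902% of all genes were. With no limit on size it was also 0 of the 6, where 0.710%, 0.0120%, and 0.132% of all genes had an adjusted p-value below 0.01. At an unadjusted p-value under 0.05 there was 1 of the 6 in R109K against WT, 0 in KK against WT, and 1 in R109K against KK, PPP1R13B both times, where 22.3%, 8.51%, and 12.4% of all tested genes were under 0.05. DESeq2 called 0 of them at more than 2-fold, and PPP1R13B in both comparisons of R109K with no limit on size.

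Between genes, levels can be set side by side as CPM per kb of exon, with all annotated exons of a gene taken as its length. In pTRE the order was PPP1R13L (19.2 CPM per kb), MDM2 (13.3), TP53BP2 (10.9), MDM4 (9.27), TP73 (2.55), PPP1R13B (1.75), and TP63 (0.0117). PPP1R13L stood clear of the rest in pTRE, the ranges of MDM2, TP53BP2, and MDM4 overlapped from each to the next, and those of TP73 (2.03 to 3.08) and PPP1R13B (1.32 to 2.04) touched. In WT the order was MDM2 (21.3), TP73 (14.5), TP53BP2 (13.6), PPP1R13L (13.1), MDM4 (12.1, and 9.11 without WT replicate 2), and PPP1R13B (5.25). TP73, which in pTRE was well below the MDM genes and the other ASPP genes, stood among them in WT, as it did in R109K (12.9 CPM per kb) and KK (14.7). Its range in WT (12.6 to 15.9 CPM per kb) overlapped with those of TP53BP2 and PPP1R13L. PPP1R13B was the lowest of the 6 in all 4 lines.

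The genes whose levels followed these most closely over the 12 samples were looked for among 13304 genes that averaged 50 reads or more per sample, by the root mean square of the difference between log2 levels, each centred on its own mean. For TP73 they were LZTS1 (0.166), N4BP3 (0.175), and FCHO1 (0.178), and for PPP1R13B they were CCDC64 (0.146), PDE1C (0.148), and KCNC4 (0.156). Against pTRE, LZTS1 had log2 fold changes of 2.29 in WT, 2.38 in KK, and 2.09 in R109K. CCDC64 had 1.65 in WT, 1.62 in KK, and 1.03 in R109K. These genes were picked for their likeness over the same 12 samples, so the order of the lines in them is no separate result.

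Other genes around the group were read from 4 lists. Of 19 regulators of MDM proteins and p53 stability, 18 were tested and 0 were regulated in any E2F1 line with edgeR, while 3 rose in WT, 2 in KK, and 2 in R109K with no limit on size, and 0 fell. The genes that rose are 16.7%, 11.1%, and 11.1% of the 18, beside the 14.8%, 13.8%, and 10.0% of all tested genes that rose. Of all tested genes 11.4%, 10.7%, and 7.23% fell, and 11.8%, 10.9%, and 7.19% were regulated. Of 13 partners and ligases of p63 and p73, all tested, FBXO45 was the 1 regulated gene, in WT and KK, while 1 rose in WT, 2 in KK, and 2 in R109K with no limit on size. The 1 regulated gene is 7.69% of the 13, where 11.8% of all genes were regulated in WT and 10.9% in KK, and those that rose are 7.69%, 15.4%, and 15.4%, beside 14.8%, 13.8%, and 10.0% of all genes. The product of FBXO45 is part of a ubiquitin ligase for p73, and the log2 fold change of FBXO45 was 1.22 in WT (adjusted p = 1.93e-06 from edgeR), 1.02 in KK (adjusted p = 1.06e-05), and 0.79 in R109K (adjusted p = 1.76e-04), from 77.2 CPM in pTRE.

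Of 14 partners of ASPP proteins, 13 were tested, and in each E2F1 line 2 of them passed both thresholds upward and 1 downward. Those are 15.4% and 7.69% of the 13. Of all tested genes 7.89%, 7.01%, and 4.64% passed both upward in WT, KK, and R109K, and 3.93%, 3.90%, and 2.56% downward. With no limit on size, 3 rose and 1 fell in WT, 3 and 2 in KK, and 3 and 1 in R109K. The 3 that rose are 23.1% of the 13, beside 14.8%, 13.8%, and 10.0% of all genes, and those that fell are 7.69%, 15.4%, and 7.69%, beside 11.4%, 10.7%, and 7.23%. BCL2, the inhibitor of apoptosis that ASPP2 can bind, averaged 5.72 CPM in pTRE, 37.2 in WT, 26.2 in R109K, and 34.5 in KK, with log2 fold changes of 2.70, 2.20, and 2.59 in the E2F1 lines (adjusted p = 9.40e-08, 1.25e-06, and 1.31e-07 from edgeR). CCDC85A, a relative of a coiled-coil protein that binds ASPP proteins, rose from 2.57 to 16.4, 11.5, and 17.6 CPM in the same order (log2 fold changes 2.67, 2.16, and 2.77). RASSF9, of a family whose members bind ASPP proteins, fell from 3.82 CPM to 1.68 in WT, 1.42 in KK, and 1.65 in R109K, a low level throughout. The median log2 fold changes in WT, KK, and R109K were 0.02, -0.03, and 0.02 for the regulators of MDM proteins, 0.19, 0.03, and -0.02 for the partners of p63 and p73, and 0.14, 0.20, and 0.06 for the partners of ASPP proteins.

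Of 29 target genes of the p53 family, all tested, 2 passed both thresholds upward and 1 downward in WT, 2 and 0 in KK, and 1 and 0 in R109K. Upward this is 6.9%, 6.9%, and 3.45% of the 29 in WT, KK, and R109K, beside 7.89%, 7.01%, and 4.64% of all genes. Downward it is 3.45%, 0%, and 0%, beside 3.93%, 3.90%, and 2.56%. With no limit on size, 3 rose and 7 fell in WT, 3 and 5 in KK, and 3 and 2 in R109K. The 3 that rose are 10.3% of the 29, beside 14.8%, 13.8%, and 10.0% of all genes in WT, KK, and R109K, and those that fell are 24.1%, 17.2%, and 6.9%, beside 11.4%, 10.7%, and 7.23%. JAG2, the gene of a Notch ligand, had log2 fold changes of 1.71 in WT, 1.64 in KK, and 1.30 in R109K (adjusted p = 4.46e-07, 6.36e-07, and 1.09e-05 from edgeR). APAF1, which forms the apoptosome and is also a known E2F1 target, had 1.39 in WT, 1.01 in KK, and 0.80 in R109K (adjusted p = 5.68e-05, 8.57e-04, and 0.00631). TP53I3, a target linked to oxidative stress, went the other way, with -1.08 in WT, -0.94 in KK, and -0.77 in R109K (adjusted p = 3.87e-04, 0.00115, and 0.00615). The list median was -0.09 in WT, -0.14 in KK, and 0.01 in R109K, near that of all genes.

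**Figure D4:**
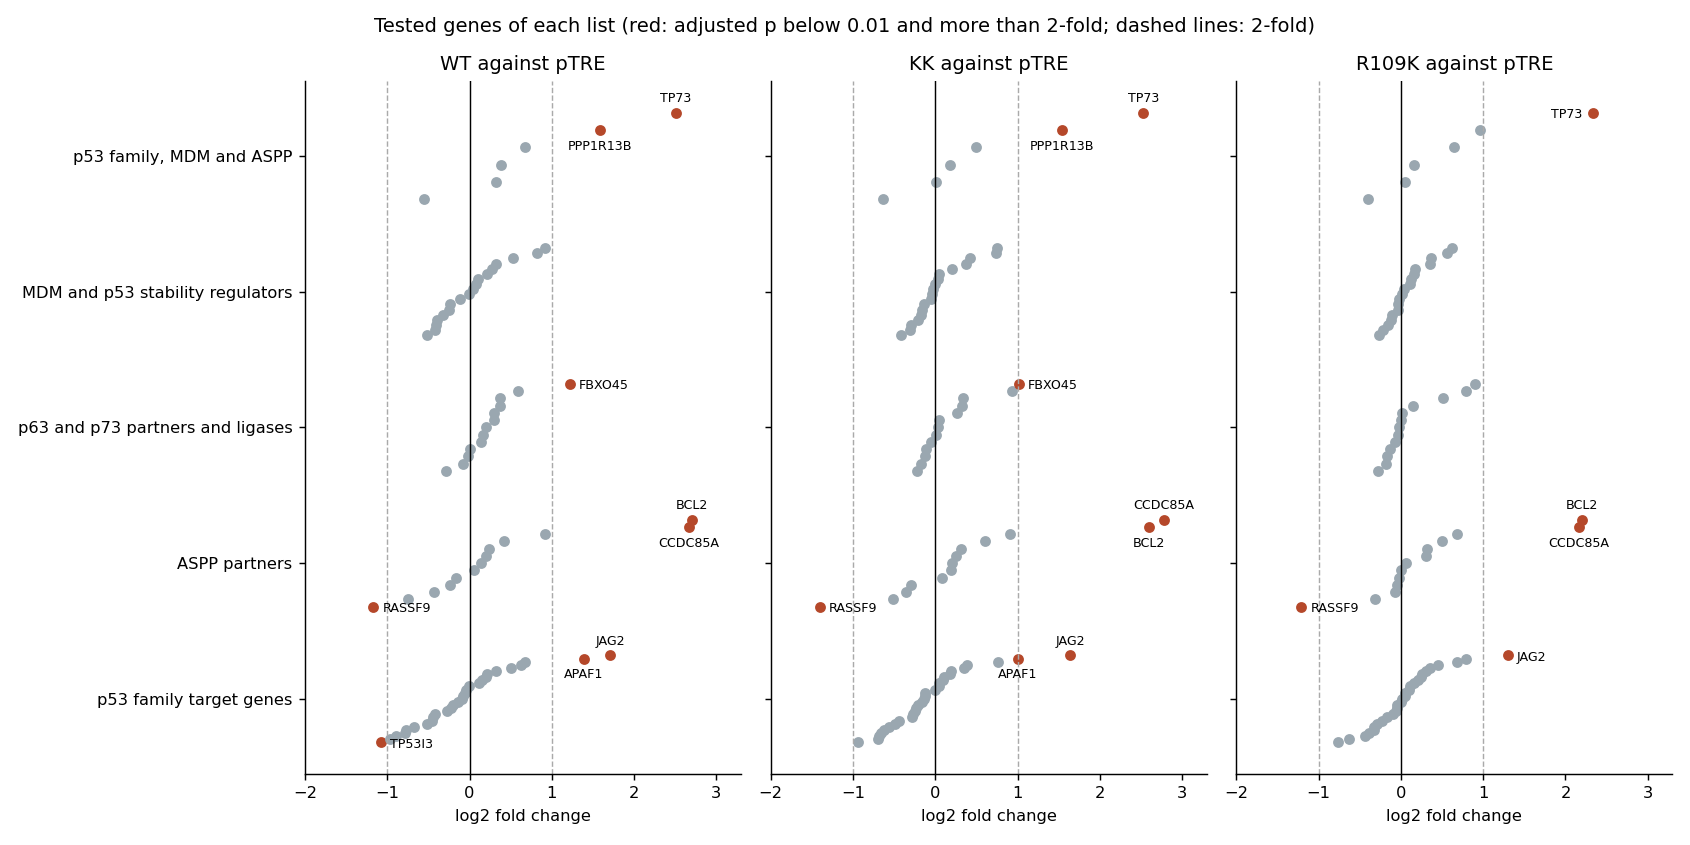
Log2 fold changes against pTRE of the tested genes of the group and of the 4 lists, 1 panel per E2F1 line, each point a gene, red for regulated genes and grey for others, with dashed lines at 2-fold. Regulated genes are 7 of the 73 tested genes of the 4 lists in WT, 6 in KK, and 4 in R109K (9.59%, 8.22%, and 5.48%, where 11.8%, 10.9%, and 7.19% of all tested genes were regulated), and most points of every list lie between the dashed lines.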

How the data were processed

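RNA-seq counts of 12 samples were used, 3 biological replicates per line. The authors deposited whole-number counts of reads per gene symbol, without normalization. Per the labels and methods, reads were trimmed with Trim Galore 0.4.3 and aligned to hg19 with STAR 2.5.1. The annotation version and strand setting of the counting are not given in the sources used here. The 5 summary lines of uncounted reads were kept out of library sizes.

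The analysis used edgeR (version 4.0.16, R version 4.3.3). Low counts were removed with filterByExpr, TMM factors were applied, and the quasi-likelihood model took all 12 samples, with the line as its only factor. The 6 comparisons were tested by glmQLFTest with Benjamini-Hochberg adjustment. The common dispersion was 0.0239. The thresholds were those of the study's methods, and the test was checked on simulated data. DESeq2 1.42.0, RLE, other filters, the 6 samples alone, a replicate block, glmTreat, an adjusted p-value under 0.05, and leaving out each sample were the alternatives. The count of genes with an adjusted p-value below 0.01 was added to them after seeing the data.

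Each SE is the absolute log2 fold change divided by the square root of the F statistic of the test, and the 95% intervals were built from it. The p-values rest on an estimate of the spread between samples within lines that, for each gene, all 4 lines share. Positions are from GENCODE on GRCh37, the authors' build, and promoters from RefSeq. Genes named are the 7 of the group, E2F1, at most 4 regulated genes of each list by size of change in WT, and the 3 closest in pattern to each regulated gene. COL1A1 and other markers, and overlapping genes, were named after their values were seen. The members and lists were chosen with earlier results of these data known.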

Additional observations from a re-analysis of the deposited data

How the results depend on the processing

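The counts of regulated members in the 6 comparisons were the same under all settings that kept every sample, and the counts of regulated genes of the 4 lists moved by over 1.5 times under 1 of these. With the change tested against 2-fold (glmTreat), 3 genes of the lists were regulated in WT, 3 in KK, and 2 in R109K. With 1 sample left out, 1 to 2 members were regulated in R109K. With DESeq2, 1 member had an adjusted p-value below 0.01 in R109K against WT and 1 in R109K against KK. Samples with the same replicate number did not deviate together (mean correlation 0.0436 over 18 pairs, -0.295 to 0.470), so the numbers were not taken to pair samples. With the replicate number as a block, MDM2 was at 0.65 on the log2 scale in R109K (edgeR, adjusted p = 0.0172) and PPP1R13L in WT an adjusted p-value of 0.00166, and the other members kept their side of 0.01 in all 6 comparisons.

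Single log2 fold changes turned sign in 20 cases, in 11 of the results, all with 1 sample left out. The main values of these were between -0.08 and 0.05 on the log2 scale, other than those of MDM4 in WT against pTRE (0.38), R109K against WT (-0.33), and KK against WT (-0.37), which turned without WT replicate 2. Over these fits MDM4 ranged from -0.027 to 0.54 in WT, from -0.11 to 0.10 in KK, and from -0.075 to 0.14 in R109K against pTRE. Between lines it ranged from -0.50 to 0.069 (R109K against WT), from -0.53 to 0.037 (KK against WT), and from -0.046 to 0.12 (R109K against KK). MDM2 ranged from -0.12 to 0.10 in R109K against WT. In KK against WT, TP73 ranged from -0.054 to 0.094, PPP1R13B from -0.12 to 0.00996, and PPP1R13L from -0.22 to 0.023. TP53BP2 ranged from -0.087 to 0.046 in R109K against KK. The depth limits TP63, at 24 reads in all.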
